A study of Canis lupus familiaris with 15 samples.

Results

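KLRD1, B2M and CEACAM1 encode cell surface proteins through which immune cells recognise other cells, and these 3 genes were examined among the 160 probes of a custom NanoString panel measured in the skin of 15 dogs. The genes were found by matching each probe's RefSeq accession, without its version, to dog KLRD1 (NM_001048035.1), B2M (NM_001284479.1) and CEACAM1 (NM_001097557.1), and all 3 had a probe. NanoString hybridises a barcoded reporter to each target RNA and counts the barcodes directly, with no amplification step. RNA came from archival skin biopsies that had been fixed and embedded in paraffin. The 7 dogs with discoid lupus erythematosus (DLE) were 1 to 13 years old, 5 of them male and 2 female. The 5 healthy dogs were sampled at leg margins, re-used from an earlier series, and have no age in the labels. The remaining dogs were 1 with chronic cutaneous lupus erythematosus in which systemic disease was suspected (CCLE, aged 7 years), 1 with mucocutaneous lupus erythematosus (MLE, 6 years) and 1 with pyoderma, a bacterial skin infection (9 years). The sample now labelled pyoderma carried the disease status DICLE until the record was revised. The labels state neither a treatment nor the body site of the lesions. All healthy dogs shared the leg site and the earlier series. In DLE against healthy skin an effect of either cannot be told apart from disease. Samples were treated as coming from different dogs, and p-values measure the spread between these samples, which may be partly technical.

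KLRD1 encodes CD94, a lectin-like receptor chain of natural killer (NK) cells and some cytotoxic T cells. CD94 pairs with NKG2 chains, and in humans and mice the pair reads a non-classical MHC class I molecule that itself displays peptides from other class I molecules. B2M encodes beta-2-microglobulin, the light chain that every MHC class I molecule needs to reach the cell surface, and its expression is raised by interferons in most cell types. CEACAM1 encodes an adhesion molecule of epithelial cells, activated lymphocytes and myeloid cells, which in humans carries inhibitory signals in T and NK cells when it binds another CEACAM1 molecule. In a bulk biopsy, a change in the number of cells that make an RNA cannot be told apart from a change in RNA per cell.

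Counts over the panel summed to between 209889 and 675018 per dog, and counts are given below after scaling by TMM (trimmed mean of M values, over the 160 panel probes) to a common library size. The keratinocyte genes KRT1, KRT5, KRT14 and KLK7 and the collagen gene COL1A1 were above background in every DLE and healthy dog. The biopsy of DLE dog 3 stood apart, because a single probe without a symbol (NM_001013425.1) held 39.6% of its panel counts, and its TMM library size was 245072 against a panel total of 550732. The spike-in control rows fell into a pair of patterns. The healthy dogs and the CCLE dog shared 1 pattern of high rows, and the DLE, MLE and pyoderma dogs shared the other. This control set is confounded with the comparison of DLE against healthy skin, apart from the CCLE and pyoderma dogs.

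KLRD1 was 3.73-fold higher in DLE than in healthy skin, as the ratio of group means. In healthy dogs 1 to 5 it stood at 39.3, 51.6, 35.3, 60.3 and 43.6 normalised counts. In DLE dogs the lowest value was 84.9 in dog 4, the median was 142 and the highest was 358 in dog 7. Every DLE dog lay above every healthy dog, and the DLE values spread over 4.22-fold against 1.71-fold among the healthy dogs. The means were 172 ± 94.1 (SD, n = 7) and 46.0 ± 10.001 (SD, n = 5), a log2 change of 1.90 ± 0.38 (SE) with an adjusted p of 0.000848 by edgeR's quasi-likelihood test. The healthy values were close to the noise of the assay. Raw KLRD1 counts in healthy dogs ran from 25 to 58, and healthy dog 1, with 25 counts, fell below its background limit of 27.8, which was set 2 SD above the mean of the 8 lowest control rows. All 7 DLE dogs were above their limits, by 2.56 to 16.4 times, against 0.90 to 2.54 times in the healthy dogs. DLE dog 3 was the lowest of the DLE dogs by this measure, with 49 raw counts. With the mean of the low control rows subtracted from each dog's counts, the log2 change was 2.34 ± 0.48. DLE dog 7 stood above the others, and without it the log2 change was 1.61.

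B2M was 2.63-fold higher in DLE skin, and its level spread over 1.59-fold among DLE dogs and 1.78-fold among healthy dogs. In healthy dogs 1 to 5 it stood at 28353, 50449, 44189, 39427 and 43821 normalised counts. In the DLE dogs it ran from 89978 in dog 3 through a median of 102649.7 to 143008 in dog 7, with no overlap between the groups. The means were 108580.4 ± 17635 (SD, n = 7) against 41247 ± 8209 (SD, n = 5), which gave 1.40 ± 0.30 (SE) on the log2 scale with an edgeR adjusted p of 0.00117. The coefficient of variation among DLE dogs was 16.2% for B2M, against 54.9% for KLRD1 and 39.0% for CEACAM1. B2M was the most abundant panel RNA in 4 of the 7 DLE dogs (dogs 1, 2, 4 and 7). It held 8.59% to 10.7% of panel counts in the healthy dogs, and 19.08% to 31.8% in the DLE dogs other than dog 3. In DLE dog 3 its share was 8.29%, below every healthy dog, while the 39.6% taken by NM_001013425.1 entered the same total.

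CEACAM1 was 4.01-fold higher in DLE skin and varied more between healthy dogs than the other genes did. Healthy dogs 1 to 5 had 363, 219.5, 576, 229.9 and 415 normalised counts. The DLE dogs ran from 781 in dog 6 through a median of 1261 to 2347 in dog 7. Dogs 5 and 7 were the highest, and the groups did not overlap. The means were 1445 ± 564 (SD, n = 7) against 361 ± 147 (SD, n = 5), or 2.001 ± 0.35 (SE) on the log2 scale by edgeR, adjusted p = 0.000346. A fit with the control set as a block compared all lupus dogs (DLE, CCLE and MLE) with all control dogs (healthy and pyoderma). In it CEACAM1 did not pass (0.78, edgeR adjusted p = 0.195). The same comparison without the block gave 1.61. The dog genome table lists 7 protein-coding genes named CEACAM, of which CEACAM1 alone had a named probe on the panel. Whether the probe also binds RNA of related CEACAM genes is not known from the files.

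**Figure D1:**
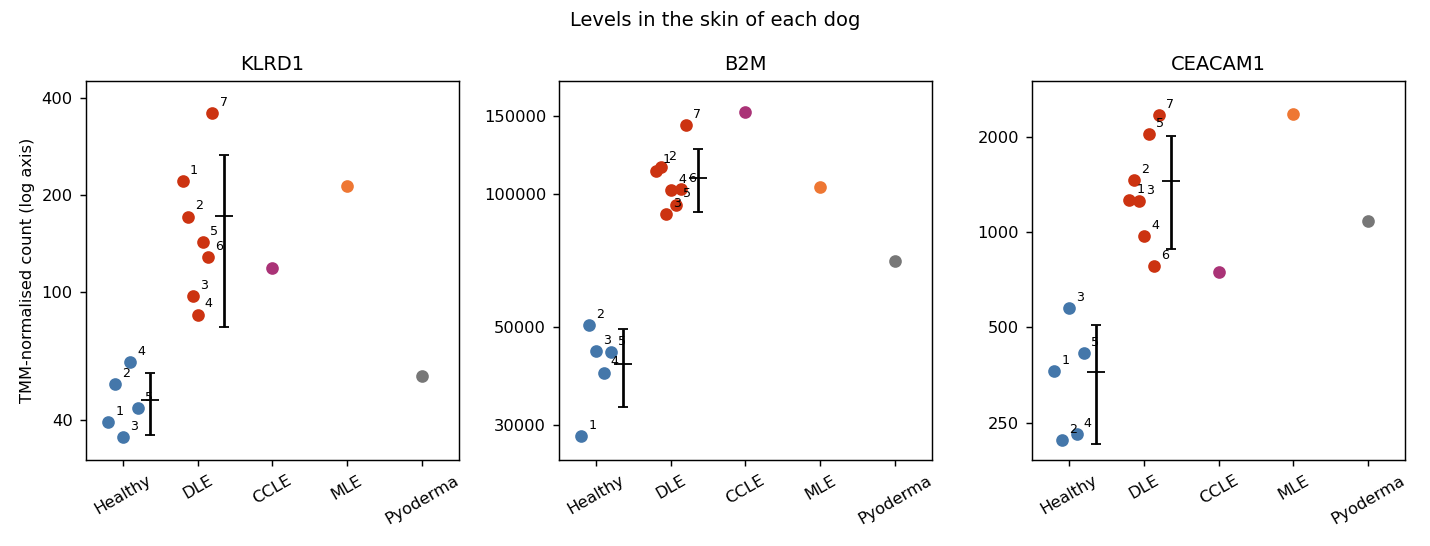
TMM-normalised counts (log axis) of KLRD1, B2M and CEACAM1 in each dog by group, with dog numbers beside the points of the DLE and healthy groups and bars for mean ± SD. The DLE and healthy groups do not overlap for any of the 3 genes, while the pyoderma dog lies among the healthy dogs for KLRD1 (54.6) and among the DLE dogs for CEACAM1 (1084).

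These calls have to be read against a panel chosen for inflammatory skin disease. Of 154 probes tested, 37.7% were called higher in DLE skin and 61.7% in either direction, and 26% had every DLE dog above every healthy dog. The median log2 change of all tested probes was 0.42. By size of the log2 change CEACAM1 took place 31 of 154, KLRD1 place 34 and B2M place 48. The 3 genes were thus among 58 probes that rose.

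The size of each rise depended on the scaling, and its direction did not in any scaling tried. KLRD1 ranged from 0.88 with limma after quantile scaling (adjusted p = 0.0466) to 2.53 when scaled on the reference genes HPRT1 and RPL13A. B2M ranged from 0.73 under panel median scaling (edgeR adjusted p = 0.0469) to 2.07 under reference gene scaling, and CEACAM1 from 1.37 to 2.70 under the same scalings. The separation of the groups was less stable than the calls. For B2M no DLE dog overlapped the healthy range under reference gene and panel median scaling, but 5 of 7 were above it under spike-in scaling and 6 of 7 under panel total scaling. For KLRD1 the separation held under reference gene scaling. It also held under spike-in scaling, where the lowest DLE dog stood at 75.9 and the highest healthy dog at 74.8. Under panel median and panel total scaling 6 of 7 DLE dogs were above the healthy range for KLRD1. For CEACAM1 the separation held under reference gene scaling, and 5 or 6 DLE dogs cleared the healthy range under the others. Of the 154 probes, 35.1% separated the groups in this direction under reference gene scaling, 13.6% under panel median, 16.2% under spike-in and 11% under panel total scaling.

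**Figure D2:**
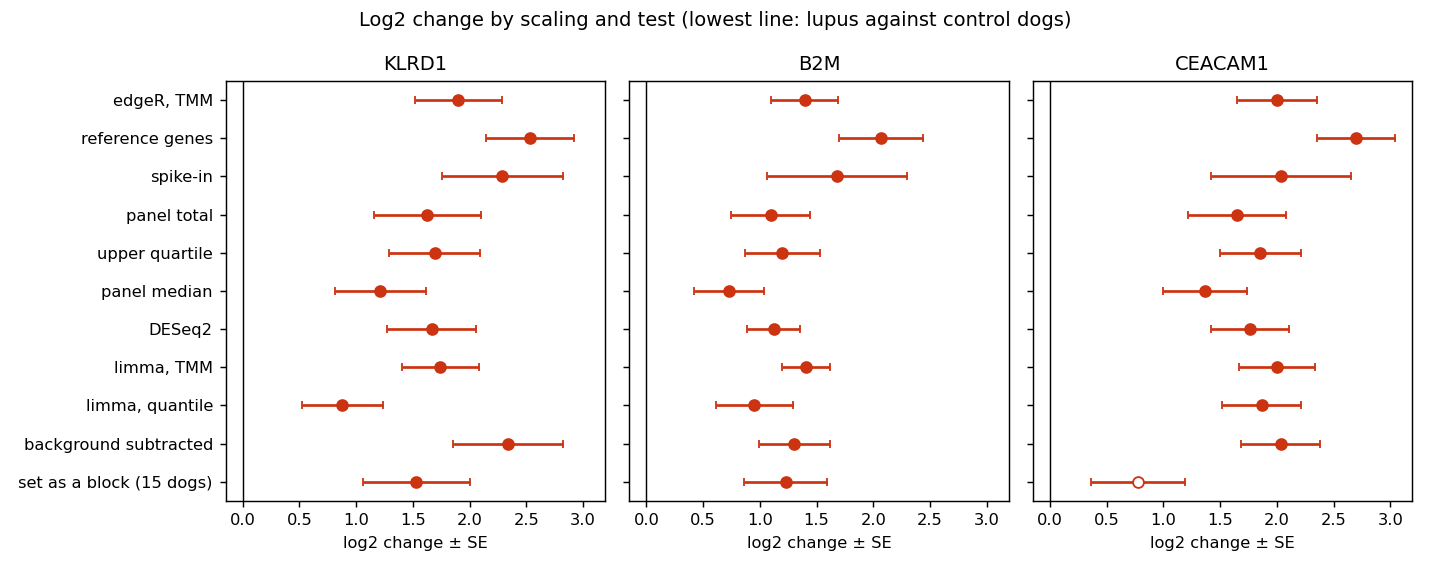
Log2 change of each gene (x axis, ± SE) by scaling and test, for DLE against healthy skin and, in the lowest line, for all lupus against all control dogs with the control set as a block; filled points have an adjusted p under 0.05. Every point lies above 0, and the open point is CEACAM1 with the control set as a block, at 0.78.

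Ratios within a dog need no scaling between dogs. HPRT1, an enzyme of purine salvage, and RPL13A, a ribosomal protein, served as denominators. The count of B2M per HPRT1 count was 38.0, 64.9, 55.1, 56.8 and 42.1 in healthy dogs 1 to 5 and 135 to 200.5 in the DLE dogs. This ratio was 3.49-fold higher in DLE skin (difference in mean log2 ratio 1.80). CEACAM1 over HPRT1 was 5.27-fold higher (log2 2.40) and KLRD1 over HPRT1 4.39-fold higher (log2 2.13). Over RPL13A the 3 ratios differed by 5.33-fold for B2M, 8.04-fold for CEACAM1 and 6.70-fold for KLRD1. None of these 6 ratios overlapped between the groups. The two-sided exact permutation p over 792 splits was 0.00126 each, the smallest it can be, and the same after Benjamini-Hochberg adjustment over the 6. Of the 154 probes, 30.5% separated the groups in this direction over HPRT1 and 39.6% over RPL13A. The reference genes were themselves lower in DLE skin under TMM. HPRT1 averaged 614 ± 80.4 against 811 ± 134 normalised counts (exact permutation p = 0.00505) and RPL13A 15334 ± 3412 against 31090.3 ± 8566 (exact permutation p = 0.00126). A fall of a denominator enlarges these ratios, and its part in them was not tested.

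The 3 genes were also set against each other in the same dog. The log2 ratio of KLRD1 to B2M was 0.33 higher in DLE than in healthy skin (exact permutation p = 0.253, adjusted over 3 pairs 0.379), with 2 of 7 DLE dogs above all healthy dogs. CEACAM1 over B2M was 0.59 higher (exact p = 0.121, adjusted 0.364), with 3 of 7 above. KLRD1 over CEACAM1 was 0.26 lower (exact p = 0.525, adjusted 0.525), with none above. No pair thus differed beyond the spread between dogs, and a p that misses the threshold does not show that the genes rose equally. Background bears most on KLRD1. With the low control rows subtracted, KLRD1 over B2M was 0.91 higher (exact permutation adjusted p = 0.0492), and KLRD1 over CEACAM1 turned to 0.25 higher (adjusted p = 0.601).

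**Figure D3:**
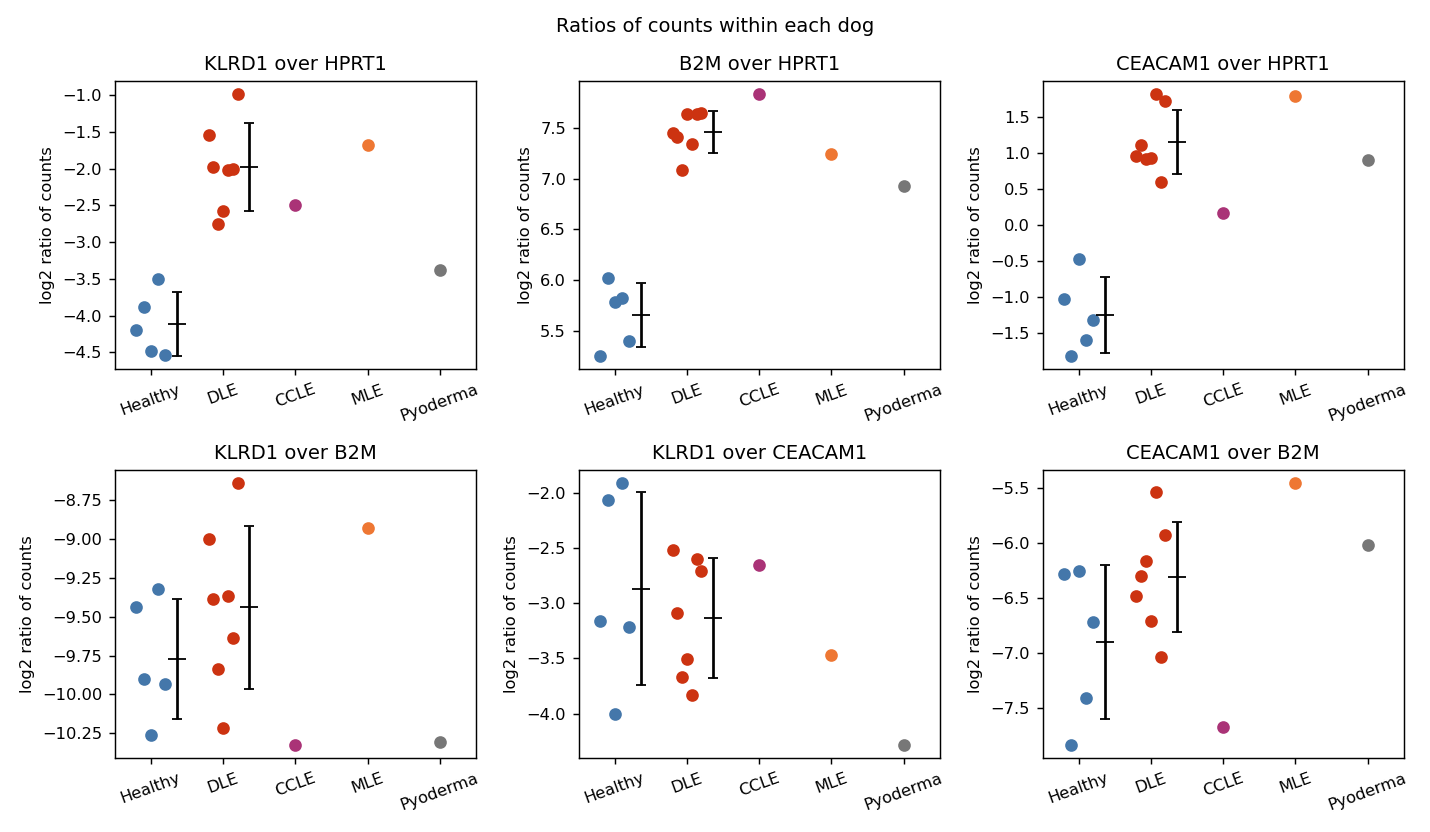
Log2 ratios of raw counts (plus 1) within each dog, with each gene over HPRT1 in the upper row and the 3 pairs of genes in the lower row; bars give mean ± SD of the DLE and healthy groups. The upper row separates the 7 DLE from the 5 healthy dogs, whereas the lower row overlaps in every pair.

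With the control set as a block, KLRD1 and B2M stayed past the threshold and CEACAM1 did not. This fit compared the 9 lupus dogs (DLE, CCLE and MLE) with the 6 control dogs (healthy and pyoderma), and 22.1% of 154 probes were called higher in it. The blocked log2 change was 1.53 ± 0.47 (SE, edgeR adjusted p = 0.0235) for KLRD1, 1.23 ± 0.37 (adjusted p = 0.0211) for B2M and 0.78 ± 0.41 (adjusted p = 0.195) for CEACAM1. Without the block, the same 15 dogs gave 1.84, 1.29 and 1.61. In the set of the DLE dogs the only control was the pyoderma dog, which carried the disease status DICLE until the record was revised. The fit counts this dog as a control by its present label. In the set of the healthy dogs the CCLE dog was the only lupus dog. The blocked changes and their p values thus rest on these single dogs without replicates. An effect of the control set cannot be told apart from a trait of these dogs. The single dogs that link the sets show where the genes part. Within the set of the DLE dogs, the pyoderma dog lay below all 8 lupus dogs for KLRD1 (54.6 against a lowest of 84.9) and for B2M (70474 against 89978). For B2M this held under TMM and panel median scaling, while under reference gene, spike-in and panel total scaling the pyoderma dog lay inside the DLE range. For CEACAM1 it lay among them, at 1084. Within the set of the healthy dogs, the CCLE dog lay above all 5 healthy dogs for all 3 genes under TMM. For CEACAM1 it stood at 749.7 against a highest healthy value of 576, but inside the healthy range under panel median (685.9 against 789) and spike-in scaling (895 against 1219). The calls of KLRD1 and B2M with the block ended under panel median scaling (1.11, adjusted p = 0.166, and 0.82, adjusted p = 0.161). That of B2M also ended under spike-in scaling (1.52, adjusted p = 0.113).

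The CCLE dog had the highest B2M level of all 15 dogs and the lowest CEACAM1 level of the 9 lupus dogs. Its B2M stood at 152951.7 normalised counts (95% Poisson interval 152207 to 153699), above DLE dog 7 at 143008. Its CEACAM1 stood at 749.7 (698 to 804), just below DLE dog 6 at 781, whose interval of 727 to 838 overlaps it. Its KLRD1, at 118 (98.5 to 141), lay inside the DLE range. In this dog 21.5% of the panel probes other than the reference genes lay above all DLE dogs, 15.8% below them and 37.3% above all healthy dogs. The position of B2M above the DLE dogs held under reference gene, panel median and panel total scaling and not under spike-in scaling. That of CEACAM1 below them held under TMM and reference gene scaling alone.

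The MLE dog had the highest CEACAM1 level, 2368 normalised counts (2287 to 2452), which its counting interval did not separate from DLE dog 7 at 2347. Its KLRD1 at 213 (189 to 239) and its B2M at 103762 (103219 to 104307) lay inside the DLE range. All 3 genes lay above all healthy dogs, as did 43% of those probes, while 10.1% lay above all DLE dogs and 17.1% below them. CEACAM1 was above the DLE range under TMM, reference gene, spike-in and panel median scaling and inside it under panel total scaling.

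Under TMM the pyoderma dog lay inside the healthy range for KLRD1 and inside the DLE range for CEACAM1. Its KLRD1 stood at 54.6 normalised counts (40.3 to 72.4), inside the healthy range and below all DLE dogs. Its B2M stood at 70474 (69920 to 71031), between the highest healthy dog at 50449 and the lowest DLE dog. Its CEACAM1 stood at 1084 (1017 to 1156), inside the DLE range and 3.01 times the healthy mean. In this dog 42.4% of those probes lay above all healthy dogs and 26.6% below them, and 21.5% lay below all DLE dogs and 8.86% above them. KLRD1 was above the healthy dogs under reference gene scaling (82.7 against a highest of 48.7) and inside their range under the other scalings. It was below all DLE dogs under TMM, reference gene, spike-in and panel median scaling. Under panel total scaling it was inside their range, where DLE dog 3 was the lower. Of the named T and NK cell markers in this dog, the chemokine CCL5 stood at 1282, above the healthy dogs (42.2 to 132) and inside the DLE range. CD40LG, a helper T cell ligand, stood at 15.9, inside the healthy range (8.17 to 17.6) and below the lowest DLE dog (26.6). This CD40LG value was not above the background of the pyoderma dog. FOXP3 went the other way, above the healthy dogs (3.97 to 15.7) and inside the DLE range (17.7 to 85.1). Among the healthy dogs CD40LG was above background in 1 and FOXP3 in none, so both of these positions are measured against background. With 1 dog in each of these diagnoses there is no replicate check, and the Poisson intervals cover counting error only.

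Ordered by TMM level, DLE and MLE dogs took places 1 to 6 for CEACAM1 and KLRD1. Place 7 went to the pyoderma dog for CEACAM1, ahead of DLE dogs 4 and 6. For KLRD1 it went to the CCLE dog, ahead of DLE dogs 3 and 4. The healthy dogs came last for all 3 genes except that the pyoderma dog took place 11 of 15 for KLRD1. For B2M the order was CCLE, then DLE with MLE inside its range, then pyoderma, then healthy. For KLRD1 it was DLE with MLE and CCLE inside its range, then pyoderma and healthy, which did not differ beyond the healthy spread. For CEACAM1 it was MLE, then DLE with pyoderma inside its range, then CCLE, then healthy.

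Among the 7 DLE dogs, KLRD1 and B2M varied together, though not past the threshold after adjustment. Pearson's r on log2 levels was 0.88 (exact permutation p = 0.0107, adjusted over 6 relations 0.0643) and Spearman's rho was 0.79 (exact p = 0.048, adjusted 0.199). Without dogs 7 and 4, the farthest from the median of KLRD1, r was 0.86 over 5 dogs. Under reference gene scaling r was 0.59 and under panel median scaling 0.92 (exact permutation adjusted p = 0.0476). KLRD1 with CEACAM1 gave r of 0.65 (rho 0.75, exact p = 0.106 and 0.0663, adjusted 0.318 and 0.199), and without dogs 7 and 4, the ends of the KLRD1 range, r was 0.18 and rho 0.5 over 5 dogs. CEACAM1 with B2M gave r of 0.46 (rho 0.43, exact p = 0.31 and 0.354, adjusted 0.619 and 0.53), r was 0.29 without dogs 7 and 5, and -0.13 without DLE dog 7 alone. No relation to age was detected in the 7 DLE dogs. For age, r was -0.06 with KLRD1 (rho 0.07), 0.33 with B2M (rho 0.54) and -0.27 with CEACAM1 (rho -0.07), with exact permutation p values of 0.89, 0.47 and 0.574 for r and 0.906, 0.236 and 0.906 for rho. Adjusted p values were 0.89, 0.689 and 0.689 for r and 0.906, 0.471 and 0.906 for rho. Without dogs 3 and 4, the youngest and the oldest, r was 0.30, 0.49 and -0.13. DLE dog 7 had the highest level of all 3 genes among DLE dogs.

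**Figure D4:**
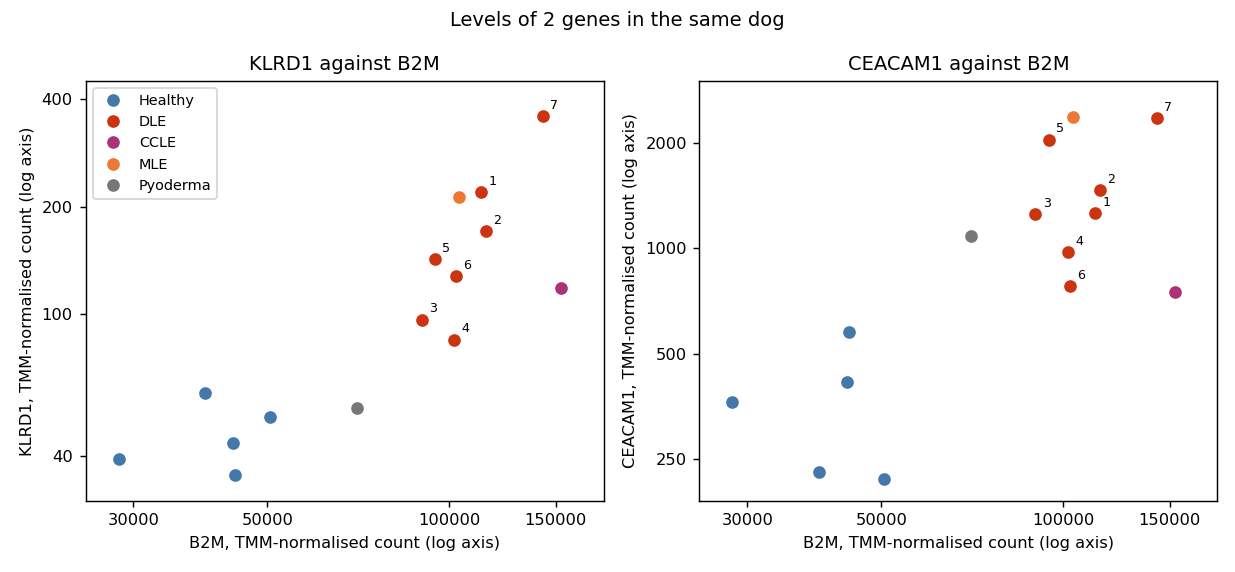
KLRD1 (left) and CEACAM1 (right) against B2M in each of the 15 dogs, as TMM-normalised counts on log axes, with DLE dogs numbered. DLE dog 7 is highest among DLE dogs on every axis, and the CCLE dog combines the highest B2M (152951.7) with KLRD1 of 118 and CEACAM1 of 749.7.

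The likeness of other panel genes to each gene was described by Pearson's r on log2 levels over the 7 DLE dogs, among 69 other named probes, without a test. The values share TMM scaling and the same 7 dogs. The genes most like KLRD1 were B2M (0.88), SELPLG, the leukocyte ligand of selectins (0.85), and CD38, a surface enzyme of plasma cells and activated lymphocytes (0.67). Those most like B2M were CD163, a scavenger receptor of macrophages (0.88), KLRD1 (0.88) and CD38 (0.80). Those most like CEACAM1 were CCL21, a chemokine of lymphatic vessels (0.72), KRT14, a keratin of basal keratinocytes (0.69), and KLRD1 (0.65). The least alike were IL4 for KLRD1 (-0.72), IFNA7 for B2M (-0.68) and KLK7, a protease of the outer epidermis, for CEACAM1 (-0.77). IL4 was above background in 1 DLE dog and IFNA7 in 3. Under reference gene scaling CCL5 became the gene most like B2M (0.97), and KLRD1 fell to place 16 (0.59). For KLRD1, SELPLG then came first (0.83) and B2M took place 4. Without DLE dog 7, r with KLRD1 was 0.68 for B2M, 0.62 for SELPLG, 0.46 for CD38 and 0.35 for CEACAM1. Leaving out the same dog, r with B2M was 0.88 for CD163 and 0.72 for CD38. For CEACAM1 it was 0.93 with CCL21 and 0.92 with KRT14.

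Of 44 genes written as cytotoxic and NK cell genes besides KLRD1, 6 had a named probe, and none of these was another killer cell receptor. Of the 6, 5 were called higher in DLE skin and 1 was not called, against 37.7% of all tested probes called higher, with a median log2 change of 1.61 against 0.42 over all tested probes. CCL5 had the largest change (log2 5.67 ± 0.60, edgeR adjusted p = 7.42e-06), and IFNG, which encodes interferon gamma, changed by 2.31 ± 0.44 (adjusted p = 0.000566), measured against healthy dogs of which 1 in 5 was above background. IL12B, a subunit of cytokines that stimulate NK and T cells, rose by 1.40, and the monocyte-attracting chemokines CCL4 and CCL3 by 1.82 and 1.26. IL21, a helper T cell cytokine that acts on NK cells, had a log2 value of 0.54 (adjusted p = 0.251) and was above background in 1 healthy and 3 DLE dogs. Values with the control set as a block, here and below, compare all lupus with all control dogs. In that fit CCL5 (3.52, edgeR adjusted p = 0.00262) and IL12B (1.17, adjusted p = 0.04) stayed past the threshold. IFNG (0.97, adjusted p = 0.159), CCL4 (0.92, adjusted p = 0.332) and CCL3 (-0.19, adjusted p = 0.834) did not. In DLE against healthy dogs under panel median scaling, IL12B (0.66, edgeR adjusted p = 0.117) and CCL3 (0.61, adjusted p = 0.208) did not pass. CCL5, IFNG and CCL4 did. Under reference gene scaling IL21 passed as well (1.23, edgeR adjusted p = 0.019). CCL3 and CCL4 are related genes, and how well their probes tell them apart is not stated.

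Few other partners of the 3 genes had a named probe, and others may be among the 88 probes without a symbol. Of 41 antigen presentation genes 1 had a named probe. This was CD86, a ligand through which dendritic cells, macrophages and B cells costimulate T cells, which rose by log2 1.53 (edgeR adjusted p = 0.000385) and did not pass with the block (0.86, adjusted p = 0.0836). No MHC class I heavy chain, peptide transporter or proteasome gene of the list was named on the panel, so B2M was the one named member of the class I molecule. Of 42 inhibitory receptor, CEACAM and adhesion genes 1 had a named probe. This was SELPLG, which rose by log2 2.42 (edgeR adjusted p = 2.37e-05) and by 2.04 with the block (adjusted p = 0.00262). Of 30 interferon and interferon-induced genes 6 were named. Of all 154 tested probes, 58 were called higher and 37 lower. IFNG and CXCL10, a T cell chemokine, rose, while IFNB1, IFNA5 and IFNA7 were called lower and IFNK was not called. In the DLE dogs IFNB1, IFNA5, IFNA7 and IFNK lay near background, so no size is given. IFNB1 was above it in 1 of 7 DLE dogs, IFNA7 in 3 and IFNA5 and IFNK in none. Of the 5 healthy dogs, IFNA7 was above background in 4, IFNB1 and IFNA5 in 3 each and IFNK in 1. With the control set as a block the calls of IFNB1 (edgeR adjusted p = 0.367), IFNA5 (0.234) and IFNA7 (0.299) ended, as did those of IFNB1 (0.0641) and IFNA7 (0.0519) under reference gene scaling and that of IFNB1 under spike-in scaling (0.064). CXCL10 rose by 6.98 (edgeR adjusted p = 3.18e-05) and by 3.75 with the block.

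Markers of other cell types moved with the same comparison. Of 14 T and NK cell markers 3 were named (CD40LG, FOXP3 and CCL5) and all 3 were called higher, against 37.7% of all tested probes. Their summed level ran from 62.6 to 153 normalised counts in healthy dogs and from 708 to 5513 in DLE dogs. It was 4972 in the CCLE, 2107 in the MLE and 1323 in the pyoderma dog, of which CCL5 made up 4715, 2023 and 1282. FOXP3 was above background in none of the healthy dogs and CD40LG in 1 of 5, so their changes are measured against background. Of 5 B cell markers the single named one, MS4A1, rose (log2 3.40; 4.28 with the block), measured against healthy dogs of which 1 in 5 was above background. It ran from 14.2 to 21.8 in healthy dogs and from 81.6 to 300.3 in DLE dogs. It stood at 474 in the CCLE dog, at 75.6 in the MLE dog and at 12.5 in the pyoderma dog, which was not above the background of that dog. Of 12 keratinocyte markers 4 were named, and KRT14 alone was called higher (log2 1.32, edgeR adjusted p = 0.0243; -0.03 with the block). Their sum ran from 64260.3 to 131878 in healthy and from 87677 to 261687 in DLE dogs. Of 7 macrophage markers CD86 was called higher and CD163 lower (log2 -1.41, edgeR adjusted p = 0.00226), and their sums overlapped between the groups (774 to 3040.3 and 1023 to 2197). The single named neutrophil marker, CXCL8, was not called (log2 0.01), and its level ran from 217 to 5204 in healthy and from 277 to 5676 in DLE dogs. In the MLE dog, which had the highest CEACAM1, CXCL8 stood at 20698. Both named mast cell markers were called lower (KIT with a log2 change of -0.70 and MS4A2 of -0.68), as were COL1A1 (-1.17) and PPARG (-2.91), the named fibroblast and fat cell markers. Among all 154 tested probes, 37 were called lower. With the control set as a block KIT (-0.05, edgeR adjusted p = 0.952), COL1A1 (-0.24, 0.804) and PPARG (-1.62, 0.228) did not pass. Under reference gene scaling KIT (-0.02), MS4A2 (0.07, turned in sign), COL1A1 (-0.53) and CD163 (-0.75) did not pass. None of 3 melanocyte markers was called. The part of these cell types in the levels of KLRD1, B2M and CEACAM1 was not tested.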

How the data were processed

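The starting values were raw counts for each probe, deposited by the authors in 1 table of 15 samples with 160 panel probes and 14 spike-in control rows. Per the labels' protocols, RNA was extracted with a Qiagen kit for fixed tissue. The counting software is not given in the sources used here. A RefSeq table of the assembly UU_Cfam_GSD_1.0 gave symbols for 72 probes, and the other 88 keep their accessions.

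TMM sizes were computed over the 160 probes in edgeR 4.0.16 (R 4.3.3). HPRT1 and RPL13A were left out of the tests, and filterByExpr kept 154 probes, including all 3 genes. The quasi-likelihood test was two-sided on 7 DLE and 5 healthy dogs, with Benjamini-Hochberg adjustment and a threshold of 0.05. SE is the size of the log2 change over the square root of F. Limma 3.58.1, DESeq2 1.42.0, other scalings, leave-one-out fits and blocks were alternatives. Ratios used counts plus 1 and exact permutation, and relations used all 5040 pairings (SciPy 1.17.1). In simulated data for DLE against healthy dogs (154 probes), edgeR recovered 30.5% of 2-fold and 87% of 4-fold changes. A minority of probes was changed there, in equal numbers up and down, and the fit was given the simulated library sizes. These rates thus leave out error from scaling.

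The members, gene lists and tests were chosen with earlier results of these data known. The named genes are the 3 members, the named probes of the lists, the 3 most and the 1 least alike by r, and both reference genes; NM_001013425.1 was named after its values were seen. No samples were near-duplicates (lowest chi-square per degree of freedom between dogs of a group, 162). Same-numbered DLE and healthy dogs were treated as separate animals. Correlations of their deviations ran from -0.14 to 0.18. For DLE dogs 1, 2, 3 and 5 the most correlated healthy dog was the same-numbered one. These correlations cannot show whether the animals are separate. Intervals are exact Poisson (95%). Promoter and protein sequences were not analysed here.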

Additional observations from a re-analysis of the deposited data

How the results depend on the processing

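In the fits of DLE against healthy dogs alone, the rises of KLRD1, B2M and CEACAM1 kept their direction and stayed past the threshold in all alternatives run, with 1 dog left out ranging from 1.61 to 2.02, 1.29 to 1.48 and 1.84 to 2.24 on the log2 scale. With the replicate block (10 dogs) they were 1.57, 1.34 and 2.01, and 52 probes were called higher and 33 lower; the block changed no call of the 3 genes. Calls ended with the control set as a block: CEACAM1 under TMM (0.78), reference gene (0.85), spike-in (0.98) and panel median scaling (0.39) and without DLE dog 3 (0.80) or the MLE dog (0.73), KLRD1 under panel median scaling (1.11), and B2M under spike-in (1.52) and panel median scaling (0.82). The blocks under other scalings or without a dog, panel total scaling and the 15-dog fit without a block were chosen after seeing the data, and the cause of these differences was not tested. Probes called higher numbered 58, with the control set as a block 34, 32 (reference genes), 26 (spike-in), 23 (panel median), 36 (without DLE dog 3) and 32 (without the MLE dog). Probes called lower numbered 37, against 17 with reference genes, 17 with spike-ins and 64 with the panel median, and with the block 6, 7, 1, 7, 9 and 6 in the same order. Higher calls made up 61.1% of calls under TMM (median log2 change of the probes 0.42), 82.8% under reference gene (1.07), 77.0% under spike-in (0.72), 50.5% under panel total (-0.01), 46.4% under quantile (-0.14) and 40.7% under panel median scaling (-0.25). With 1 dog left out 53 to 59 probes were called higher and 35 to 41 lower.

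With background subtracted, KLRD1 over B2M passed (0.91) and KLRD1 over CEACAM1 turned to 0.25. With 1 dog left out these ratios ranged from 0.20 to 0.46 and from -0.55 to -0.02, and CEACAM1 over B2M from 0.36 to 0.75. The ratios over HPRT1 and RPL13A kept their calls without any 1 dog. The r of KLRD1 with B2M passed under panel median scaling (0.92), and ranged from 0.68 to 0.95 with 1 dog left out, the highest being without DLE dog 4 (adjusted p = 0.0333). That of KLRD1 with CEACAM1 ranged from 0.35 to 0.78 and that of CEACAM1 with B2M from -0.13 to 0.76. With age, r turned to 0.17 for KLRD1 and 0.0097 for CEACAM1 under reference gene scaling and to -0.32 for B2M under panel median scaling. With 1 dog left out it ranged from -0.42 to 0.59, 0.04 to 0.68 and -0.46 to 0.027 for KLRD1, B2M and CEACAM1. KLRD1 was above background in 4 of 5 healthy dogs.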

Other observations

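KLRD1 and CCL5, which T and NK cells both make, were compared as raw counts in the same dog, a ratio chosen after seeing the data and given without a test. In healthy dogs 1 to 5 KLRD1 counts were 69.4%, 39%, 79.5%, 114% and 103% of CCL5 counts. In the DLE dogs they were 2.48% to 15.2%, in the CCLE dog 2.51%, in the MLE dog 10.5% and in the pyoderma dog 4.26%. The healthy percentages rest on KLRD1 counts of 25 to 58 and CCL5 counts of 31 to 100, which lie near background.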
